A study of Mus musculus with 6 samples.

Results

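The 32 genes described here carry out or control DNA replication (15 genes) and mitosis (17 genes). They were chosen by name, and every probe set annotated to one of them and to no other gene was taken on all arrays. This gave 72 of the 45037 probe sets that were not controls, 40 for the 15 replication genes and 32 for 16 of the mitosis genes, out of 18193 genes named in the same way. Ccnb1, which encodes cyclin B1, was named by no probe set alone, so its level was not analysed here, although its promoter was searched. Of the 72 probe sets, 62 passed a filter on dim signal (34 for replication, 28 for mitosis) and these represented 31 genes. The 10 dim ones (of Mcm6, Cdt1, Rrm1, Tyms, E2f1, Top2a, Aurka, Bub1b and Foxm1, with Tyms contributing 2) had mean signals of 4.38 to 58.4, against a filter at 60.5, and were not tested.

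The RNA came from embryoid bodies, floating clumps in which embryonic stem cells of the mouse give rise to many cell types. All were grown from a single line, Hoxb4i, which carries a tet-on cassette through which doxycycline switches on HOXB4, a homeodomain transcription factor of blood progenitors. Cells were seeded at 3500 per ml and harvested on day 6. The doxycycline group had received 2 µg/ml from day 4 onward (48 h) and the uninduced group had received none. The 2 groups each comprised 3 arrays, 1 per experiment (named A, B and C), which the design text calls biological replicates. Both groups carried the cassette, and no array measured cells without it, so that effects of HOXB4 and of doxycycline itself cannot be told apart. Total RNA of whole embryoid bodies (4.3 µg per array) was hybridized to Affymetrix Mouse Genome 430 2.0 arrays, and in such bulk RNA fewer cells of a type and less RNA per cell cannot be told apart.

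A cell copies its genome once per cycle. In G1 phase the proteins Cdc6 and Cdt1 load the Mcm2 to Mcm7 helicase onto replication origins. Cyclin E and E2F factors then bring the cell into S phase, where Pcna clamps the polymerases to DNA and ribonucleotide reductase (Rrm1, Rrm2) and thymidylate synthase (Tyms) supply nucleotides. In mitosis Cdk1 with cyclins A and B, Plk1 and the Aurora kinases build the spindle, Bub1 and Bub1b hold a checkpoint, and Cdc20 activates the complex that starts anaphase. Many S phase genes are read through E2F sites in their promoters, and many mitotic genes through a short element called the CHR (cell cycle genes homology region) together with CCAAT boxes. Early embryonic cells divide fast, and cells that leave the cycle to differentiate lower both sets.

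The promoters of the members differed in these elements between the replication and the mitosis genes. RefSeq promoters (build GRCm38.p6, 250 bases before to 50 after the gene's start) were found for 26 of the 32 genes, and not for Mcm4, Ccne2, Ccna2, Aurkb, Kif20a and Foxm1. They were searched on both strands for the CHR (TTTGAA or TTCGAA), for CCAAT and for E2F sites (spelled TTCCCGC, or TTGGCGC, or TTCGCGC, or else TTGCCGC). Matches were allowed to overlap, those of the same motif included. Of the mitosis genes, 10 of 13 (76.9%) held a CHR, namely Mki67, Top2a, Ccnb2, Cdk1, Cdc20, Plk1, Aurka, Bub1, Bub1b and Kif11, and all 10 also held a CCAAT box. Of the replication genes, 2 of 13 (15.4%) held a CHR, Mcm2 and Mcm7, close to the 15.9% of 10060 genes with a tested probe set and a promoter. E2F letters occurred in 8 of 13 replication genes (61.5%), which were Mcm3, Mcm5, Mcm6, Mcm7, Cdc6, Cdt1, Rrm1 and Rrm2. They occurred in 3 of 13 mitosis genes (23.1%) and in 19.7% of tested genes. CCAAT was found in 61.5% of the replication, 84.6% of the mitosis and 43.1% of the tested genes, and CHR and CCAAT together in 76.9% of the mitosis genes against 6.53% of tested genes. Over all 27025 genes of the promoter table the shares were 21.7% for the CHR, 41.1% for CCAAT and 10.9% for E2F. In 2 longer lists of genes with related roles, a CHR occurred in 72.2%, CCAAT in 69.4% and both in 61.1% of 36 further mitosis genes. E2F letters occurred in 60.6%, CCAAT in 57.6% and a CHR in 21.2% of 33 further replication genes. A match describes the letters only, and no binding was measured here.

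**Figure D1:**
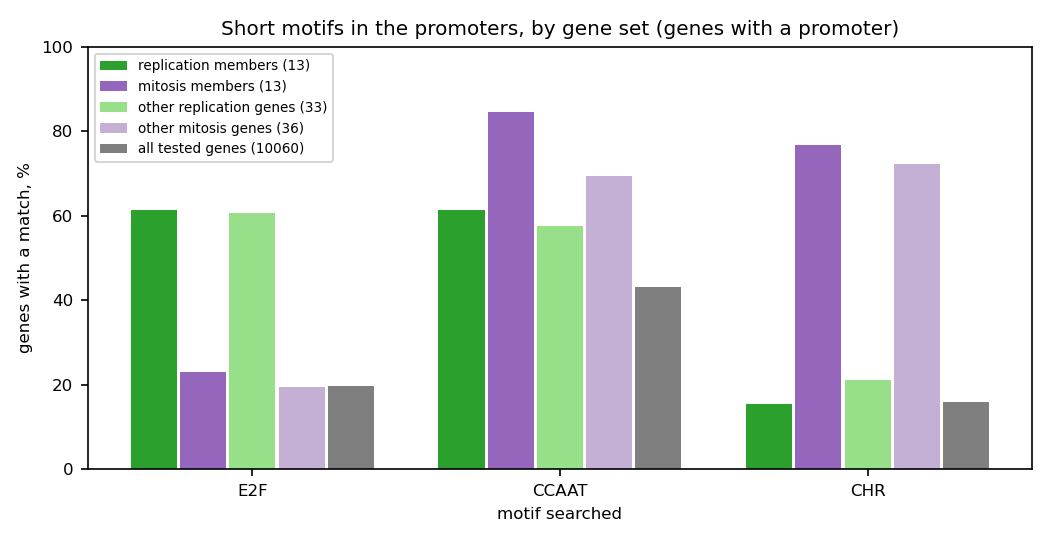
Share of genes (y axis, percent) whose promoter held E2F, CCAAT or CHR letters (x axis), for the replication and mitosis members, the longer lists of other replication and mitosis genes and all tested genes. The number of genes with a promoter is in brackets. E2F letters reached 61.5% in the replication members and the CHR 76.9% in the mitosis members, against 19.7% and 15.9% of tested genes.

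The following 4 promoters are shown because they belong to the members with the smallest p for C minus B, among those with a promoter. They are printed 5′ to 3′ on the gene's strand with every motif match in capitals. Ccne1, encoding cyclin E1, lies on the minus strand (chr7:38107441-38107740) and held none of the letters searched in this window. Mcm7, a helicase subunit on the minus strand (chr5:138171834-138172133), held 7 matches: a CHR, 3 CCAAT boxes and 3 E2F matches. CHR and E2F letters lay only 2 bases apart in the upstream part. Past the start, 2 of the E2F matches overlapped each other and a CCAAT box, forming 1 stretch. Plk1, a mitotic kinase on the plus strand (chr7:122159185-122159484), held 1 CCAAT box and, past the start, 1 CHR. Mcm2, another helicase subunit on the minus strand (chr6:88898731-88899030), held 1 CCAAT box and 1 CHR and none of the E2F letters.
Ccne1: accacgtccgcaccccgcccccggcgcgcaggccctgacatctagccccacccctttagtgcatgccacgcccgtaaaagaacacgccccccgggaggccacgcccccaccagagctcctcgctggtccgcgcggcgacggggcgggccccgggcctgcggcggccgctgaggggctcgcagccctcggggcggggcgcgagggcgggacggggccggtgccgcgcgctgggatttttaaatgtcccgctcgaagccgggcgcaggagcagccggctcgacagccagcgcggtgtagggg
Mcm7: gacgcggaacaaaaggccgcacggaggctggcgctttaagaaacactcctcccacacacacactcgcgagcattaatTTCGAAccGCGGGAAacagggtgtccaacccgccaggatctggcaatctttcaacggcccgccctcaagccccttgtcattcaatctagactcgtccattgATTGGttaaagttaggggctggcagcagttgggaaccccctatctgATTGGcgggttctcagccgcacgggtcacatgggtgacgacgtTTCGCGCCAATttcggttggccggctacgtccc
Plk1: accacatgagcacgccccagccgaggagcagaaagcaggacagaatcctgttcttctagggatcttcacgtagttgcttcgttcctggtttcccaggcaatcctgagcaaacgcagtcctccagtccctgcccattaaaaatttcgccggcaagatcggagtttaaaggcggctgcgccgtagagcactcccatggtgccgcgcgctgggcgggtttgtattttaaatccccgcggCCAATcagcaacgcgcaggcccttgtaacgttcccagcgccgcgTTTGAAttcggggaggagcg
Mcm2: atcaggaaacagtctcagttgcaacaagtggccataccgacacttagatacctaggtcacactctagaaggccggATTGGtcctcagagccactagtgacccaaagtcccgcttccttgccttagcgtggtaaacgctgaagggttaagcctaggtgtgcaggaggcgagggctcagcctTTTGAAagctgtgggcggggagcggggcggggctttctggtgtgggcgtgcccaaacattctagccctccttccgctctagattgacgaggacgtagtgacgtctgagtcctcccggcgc

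The signals had been scaled so that their trimmed mean was 500 on every array, and the median signal per array was 92.0 to 109. The uninduced array of A stood apart in a measure of RNA quality. Its ratio of 3′ to 5′ probe signal for the control gene Actb was 2.88, where the remaining 5 arrays had 1.26 to 1.48. For Gapdh the ratio was 1.08 there and 0.834 to 0.903 elsewhere. A high ratio arises when transcripts are represented mainly by their 3′ ends, and results that rest on this array are given with and without it. Hoxb4 itself, on probe set 1460379_at, gave signals of 78.2, 253 and 27.6 in the uninduced experiments A, B and C and of 136, 261 and 151 with doxycycline, higher within each experiment and not past the threshold (log2 difference 0.86, adjusted p = 1.00, limma with Benjamini-Hochberg adjustment). Below, values given for the uninduced or the doxycycline arrays are in the order A, B, C. Differences are on the scale log2(signal + 18.8), and "past the threshold" means a limma p under 0.05 once adjusted by Benjamini-Hochberg across the 27022 probe sets tested.

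Doxycycline changed none of the replication or mitosis genes past the threshold. The 15 replication genes, each taken by its brightest tested probe set, had a median difference of 0.05 (range -1.11 to 0.38), and the 16 mitosis genes one of -0.01 (range -0.26 to 0.27), against 0.02 over all 12452 tested genes. In limma 0 of 62 member probe sets passed in either direction, and so did 0% of all tested probe sets. At an unadjusted p under 0.05 the members again gave 0 of 62, while 0.511% of all tested probe sets passed. With the experiment as a replicate block, 3 of 62 members lay under that unadjusted level beside 3.94% of all probe sets, all lower with doxycycline: Mcm4 on 1436708_x_at (-0.32), Cdt1 on 1424143_a_at (-0.29) and the dim Tyms probe set 1438690_at (-1.11). None of them passed the adjustment (adjusted p = 0.930 in limma). The other tested probe sets of these genes stood at 0.03 (Mcm4, 1416214_at), 0.11 (Cdt1, 1424144_at) and -0.05 (Tyms, 1442192_at). Over the members, 95% confidence intervals had a median half-width of 0.62 without and 0.38 with the block, before any adjustment for the number of probe sets. The doxycycline intervals and adjusted p given below for single genes come from the fit without the block, unless stated. That fit does not use the pairing of the arrays by experiment.

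Mki67, the gene of the proliferation antigen Ki-67, gave signals of 6681, 6796 and 6419 in the uninduced arrays and of 5600, 5583 and 5448 with doxycycline. All 3 induced arrays lay below all 3 uninduced ones, by -0.25, -0.28 and -0.24 within A, B and C. The log2 difference was -0.26 (95% confidence interval -0.59 to 0.07) and its adjusted p was 1.00 in limma. With the replicate block the limma p for Mki67 was 0.052 unadjusted and 0.930 adjusted. Cdt1, which loads the helicase, showed the same order on 1424143_a_at, with 7902, 6653 and 6727 uninduced and 6388, 5472 and 5571 with doxycycline (difference -0.29, interval -0.66 to 0.09, adjusted p = 1.00 in limma). Its second probe set, 1424144_at, did not, at 2618, 2473 and 3631 against 2928, 2591 and 3896 (difference 0.11). These genes were singled out after their values were seen. They were the 2 of 62 member probe sets (3.23%) on which the groups did not overlap downward, beside 2.11% of all tested probe sets. Upward there were 0 of 62, beside 2.24%.

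The brightest member of each mitotic role did not pass the threshold with doxycycline either. Cdk1, the kinase that drives entry into mitosis, gave 6342, 7963 and 7870 uninduced and 6329, 6610 and 7212 with doxycycline (difference -0.13, interval -0.51 to 0.25). The induced array was below its partner in every experiment, but the groups overlapped. Top2a, the topoisomerase that untangles chromosomes, gave 8932, 8149 and 8847 against 8772, 6952 and 7515 on 1454694_a_at (-0.16, interval -0.53 to 0.20). Cdc20 gave 14760, 9976 and 10823 against 10566, 8765 and 9921 on 1439377_x_at (-0.26, interval -0.70 to 0.17), with the uninduced array of A highest. Birc5, which encodes survivin of the chromosomal passenger complex, gave 3236, 5727 and 5716 against 4275, 5368 and 5174 (0.05, interval -0.54 to 0.65), with both A arrays lowest. Foxm1, a transcription factor of mitotic genes, gave 539, 381 and 596 against 624, 507 and 694 on 1448834_at (0.27, interval -0.35 to 0.89). On this probe set it was higher with doxycycline within each experiment, and the groups overlapped. On the other tested Foxm1 probe sets, 1417748_x_at and 1448833_at, it was lower with doxycycline in A (-0.59 and -0.22) and higher in B and C. None of these passed in limma (adjusted p = 1.00 for each).

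**Figure D2:**
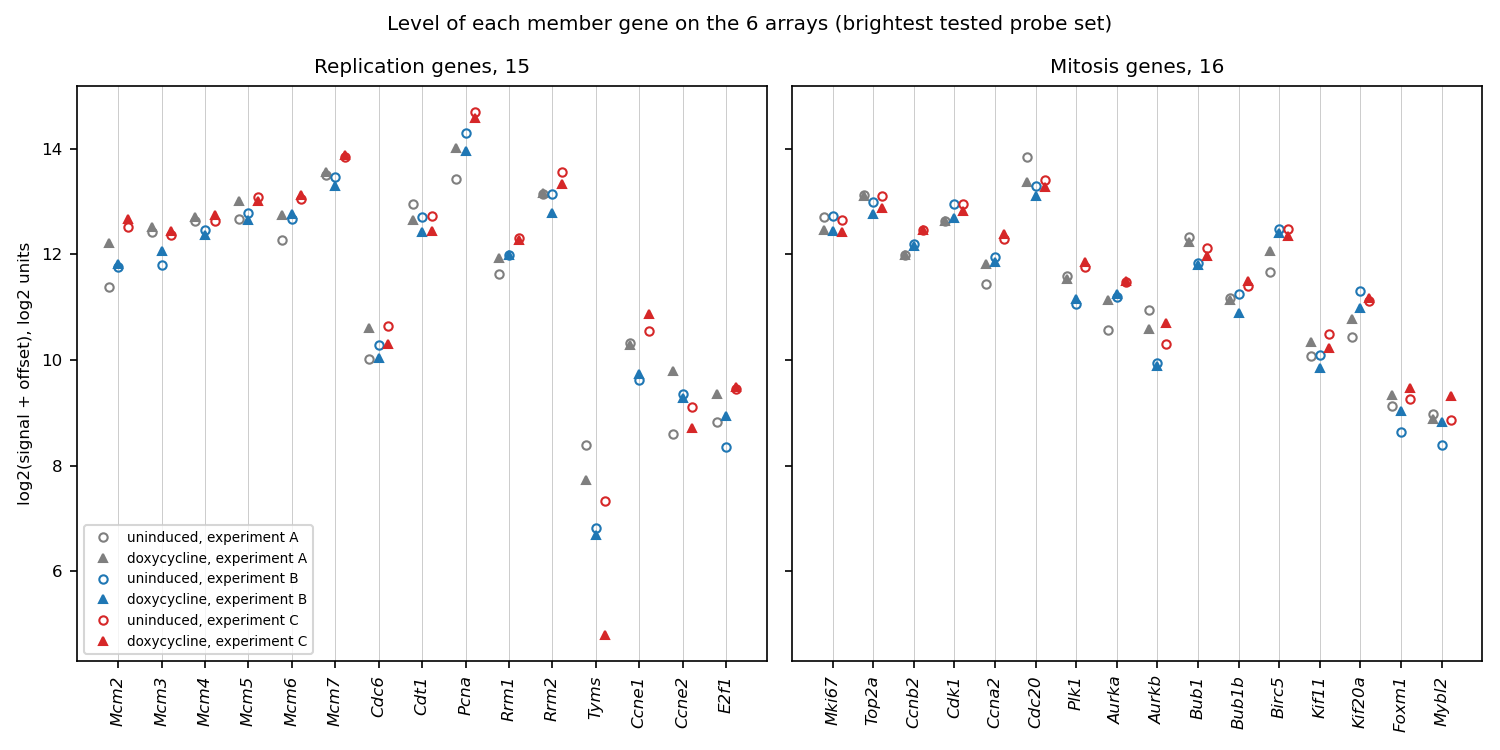
Level of each member gene (y axis, log2 of signal plus offset) on the 6 arrays, by its brightest tested probe set, for the 15 replication genes (left) and the 16 mitosis genes (right). Open circles are uninduced and triangles doxycycline arrays, coloured by experiment. The red symbols of experiment C lie above the blue ones of B for most genes, and Tyms, a dim probe set, spreads widest. Levels of different genes are not comparable.

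Within single experiments the replication genes differed in direction. In A, 12 of 15 were higher with doxycycline (median 0.29), in B 10 of 15 were lower (median -0.11) and in C 8 of 15 were lower (median -0.04). The mitosis genes had medians of -0.02 in A, -0.10 in B, where 12 of 16 were lower, and 0.01 in C. Each experiment has 1 array per condition, so these values have no test, and the A value rests on the uninduced array with the high 3′ to 5′ ratio. In the fit of all experiments without that array the median over the replication genes was -0.04 and over the mitosis genes -0.12. That fit had no replicate block and set all doxycycline arrays against the uninduced arrays of B and C. It therefore did not keep the pairing, and differences between the experiments enter these medians. By the brightest probe sets the largest differences within A were those of Ccne2 (1.20), the second cyclin E gene, and of Mcm2 on 1448777_at (0.84), and in both the uninduced array was the lowest of the 6. On the other Mcm2 probe set, 1434079_s_at, the difference within A was 0.01. The median replication level minus the median mitosis level, each gene centred on its mean over the arrays, was -0.16 on the uninduced and 0.16 on the doxycycline array of A. In B it was -0.09 and -0.11, and in C it was 0.13 and -0.07.

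**Figure D3:**
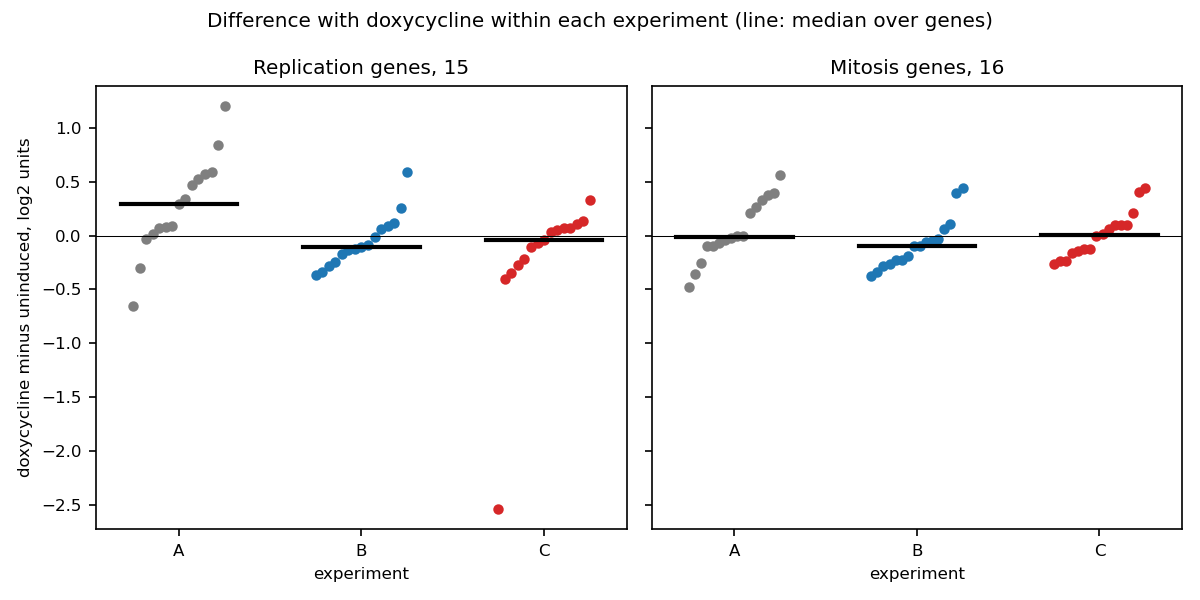
Doxycycline minus uninduced (y axis, log2 units) for each replication gene (left) and mitosis gene (right) within experiments A, B and C (x axis), with the median as a line. The replication genes of A sit highest, with a median of 0.29, and the low point of C at -2.54 is the dim Tyms probe set.

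Other genes of the same pathways gave 0 calls with doxycycline as well. Of 40 tested genes among 42 further replication genes 22 were lower, with a median of -0.02. Of 42 further mitosis genes 31 were lower, with a median of -0.12 and with 24, 36 and 33 lower within A, B and C, beside 47.0% lower among all tested genes. Among 24 tested genes that brake the cycle or act in G1, 16 were lower. Those with the smallest p were, in the replication list, the flap nuclease Fen1 (-0.49), the Cdt1 inhibitor Gmnn (-0.32) and the polymerase subunit Pold1 (-0.30). In the mitosis list they were Incenp (-0.49) and Cdca8 (-0.30) of the passenger complex and the kinesin Kif18a (-0.53). In the brake list they were the antiproliferative gene Btg2 (-0.66), the cyclin G1 gene Ccng1 (-0.43) and Lin9 (-0.54) of the complex that binds the CHR. Gmnn gave 4711, 5081 and 5708 uninduced and 4254, 4116 and 4027 with doxycycline, and Cdca8 6795, 5780 and 7060 against 5655, 4708 and 5561. For both, and for Pold1 and Btg2 too, the groups did not overlap, which the choice by smallest p favours. Among all tested probe sets 2.11% had all doxycycline arrays below all uninduced ones. The adjusted p was 1.00 in limma for all 9.

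Most members lay higher in experiment C than in B, in both conditions, and a few of them past the threshold. The estimate of C minus B was above 0 for 57 of 62 member probe sets (91.9%), against 55.7% of all tested ones, with a median of 0.45 against 0.07. By gene it was above 0 for 13 of 15 replication genes (median 0.37) and 14 of 16 mitosis genes (median 0.27). The 5 probe sets below 0 were of Mki67 (-0.06), Birc5 (-0.03), Mcm4 on 1436708_x_at (-0.04), Ccne2 (-0.41) and Tyms on 1438690_at (-0.69). Both C arrays lay above both B arrays on 48 of 62 probe sets (77.4%, 26 genes), against 34.4% of all tested probe sets. The share was 35.4% of the 4657 in the interquartile range of mean signal of the members' brightest probe sets. The reverse held on 1 of 62, for Ccne2, against 26% of all. The 4 arrays of A and C all lay above both B arrays on 22 of 62 (35.5%, 14 genes), against 16.4%.

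In limma 6 of 62 members passed the threshold as higher in C than in B, beside 4.33% of all tested probe sets, and 0 of 62 as lower, beside 5.26%. They were 3 probe sets of Mcm7, 2 of Ccne1 and the one of Plk1. By gene, on the brightest tested probe set, 1 of 15 replication genes (Ccne1) and 1 of 16 mitosis genes (Plk1) passed as higher. These shares are near the 5.78% of all tested genes that passed as higher. Without the uninduced array of A, 36 of 62 passed as higher, from 19 genes, beside 16.3% of all, and 0 as lower, beside 13.7%. The same count of 36 was reached without the doxycycline array of A (beside 16.2% of all, with 13.9% lower) or without both A arrays (beside 16.5%, with 13.8% lower), and 0 members passed as lower in either. The estimates themselves come from the B and C arrays and do not depend on A, whose arrays enter through the spread. With 1 or both A arrays left out, the spread within experiments also came from the B and C arrays alone. The repeated counts of 36 are therefore not independent of one another. When 1 of the B or C arrays was left out, a single array stood for that experiment. Then 1 member passed, as higher, without the uninduced array of B (Mcm7, 1416030_a_at), beside 1.69% of all called higher and 2.2% lower. Without the doxycycline array of B 0 passed, beside 1.69% and 2.08%, and so it was without the uninduced (1.69% and 3.03%) or the doxycycline array of C (1.52% and 2.58%). All of these comparisons rest on 2 arrays per experiment.

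Among the helicase genes Mcm7 differed most often. Its probe set 1416030_a_at gave 4077, 6057 and 10841 uninduced and 7362, 5698 and 11890 with doxycycline, both C arrays above all others (C minus B 0.95, interval 0.44 to 1.45, adjusted p = 0.0337 in limma). On 1416031_s_at the signals were 3325, 3238 and 5786 and, with doxycycline, 4421, 3398 and 6327, again highest in C (0.86, adjusted p = 0.0143 in limma). On 1439269_x_at they were 3904, 2213 and 3418 and, with doxycycline, 3636, 2305 and 3707. There the B arrays were low and A and C alike (C minus B 0.65, adjusted p = 0.0439, and B minus A -0.73, adjusted p = 0.0499, both in limma). The brightest Mcm7 probe set, 1438320_s_at, gave 11594, 11270 and 14647 and, with doxycycline, 12137, 10013 and 15164 (0.49, adjusted p = 0.0543 in limma). By their brightest probe sets the other helicase genes lay higher in C without passing: Mcm2 by 0.80, Mcm3 by 0.47, Mcm6 by 0.37, Mcm5 by 0.33 and Mcm4 by 0.27. Mcm2 on 1448777_at gave 2644, 3457 and 5885 and, with doxycycline, 4756, 3599 and 6460 (adjusted p = 0.0549 in limma). Its other probe set, 1434079_s_at, stood at 0.37 (adjusted p = 0.250 in limma), and there the B and C arrays overlapped. The loaders Cdc6 (0.31) and Cdt1 (0.02 on the brightest, 0.57 on the other probe set) did not pass either.

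Ccne1, which drives entry into S phase, had the largest difference between C and B among the members. On 1416492_at it gave 565, 442 and 943 uninduced and 579, 390 and 1036 with doxycycline (1.21, interval 0.69 to 1.73, adjusted p = 0.0139 in limma). On 1441910_x_at it gave 1253, 768 and 1476 and, with doxycycline, 1224, 834 and 1858 (1.03, interval 0.57 to 1.50, adjusted p = 0.0173 in limma). On both probe sets the order was C above A above B in each condition. Ccne2, its paralog, gave 368, 640 and 535 uninduced and 870, 601 and 399 with doxycycline, with A the widest apart. Its C minus B difference of -0.41 had an interval from -1.28 to 0.46. E2f1 lay higher in C on its brightest probe set (0.82, adjusted p = 0.0853 in limma), at 437, 308 and 683 uninduced and 636, 473 and 699 with doxycycline. Its other tested probe set, 1417878_at, stood at 0.14 (adjusted p = 0.829 in limma).

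Pcna gave 11049, 20120 and 26486 uninduced and 16478, 15906 and 24614 with doxycycline, both C arrays highest. C exceeded A by 0.92 (adjusted p = 0.0395 in limma) and B by 0.51 (adjusted p = 0.168). The small subunit of ribonucleotide reductase, Rrm2, gave 1562, 4799 and 8548 and, with doxycycline, 3709, 3667 and 7362 on 1416120_at (C minus A 1.71, adjusted p = 0.0323 in limma). Its brightest probe set, 1434437_x_at, stood at 0.29 (adjusted p = 0.227 in limma) and 1448226_at at 0.52 (adjusted p = 0.103 in limma), neither past the threshold. The large subunit Rrm1 gave 680, 3822 and 6189 and, with doxycycline, 2459, 3303 and 4928 on 1448127_at (C minus A 2.07, adjusted p = 0.0400 in limma). Its brightest probe set, 1415878_at, stood at 0.50 and did not pass (adjusted p = 0.098 in limma). On 1416120_at and 1448127_at the uninduced array of A was far below the other 5 arrays. The probe sets that name Tyms alone were dim and did not go together, at 316, 94.7 and 143 and, with doxycycline, 194, 84.3 and 9.00 on 1438690_at. A probe set that names Tyms together with other genes was left out, and its level is not given here.

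Plk1 was the mitosis gene that passed between C and B. It gave 3084, 2109 and 3431 uninduced and 2947, 2274 and 3663 with doxycycline, with the B arrays lowest and the C arrays highest (0.69, interval 0.31 to 1.07, adjusted p = 0.0369 in limma). Aurkb, the kinase of the passenger complex, lay higher in C by 0.59 and Aurka, the kinase of the spindle poles, by 0.27, neither past the threshold. The mitotic transcription factors Foxm1 (0.53) and Mybl2 (0.48), the spindle kinesin Kif11 (0.38) and the checkpoint kinases Bub1b (0.37) and Bub1 (0.23) lay in the same direction. Cyclin A2, encoded by Ccna2, gave 2756, 3947 and 4994 uninduced and 3577, 3688 and 5354 with doxycycline on 1417911_at. It was higher in C than in A (0.72, adjusted p = 0.0489 in limma) and lay 0.44 above B (adjusted p = 0.168 in limma). Its other probe set, 1417910_at, stood 0.37 above A and did not pass (adjusted p = 0.200 in limma). Ccnb2, for cyclin B2, lay higher in C than in B by 0.28 and Cdc20 by 0.15, without passing. Differences were nearest 0 for Top2a (0.12), Cdk1 (0.05), the kinesin Kif20a (0.00), Birc5 (-0.03) and Mki67 (-0.06). For Mki67 and Cdk1 the intervals reached from -0.38 to 0.26 and from -0.27 to 0.38.

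**Figure D4:**
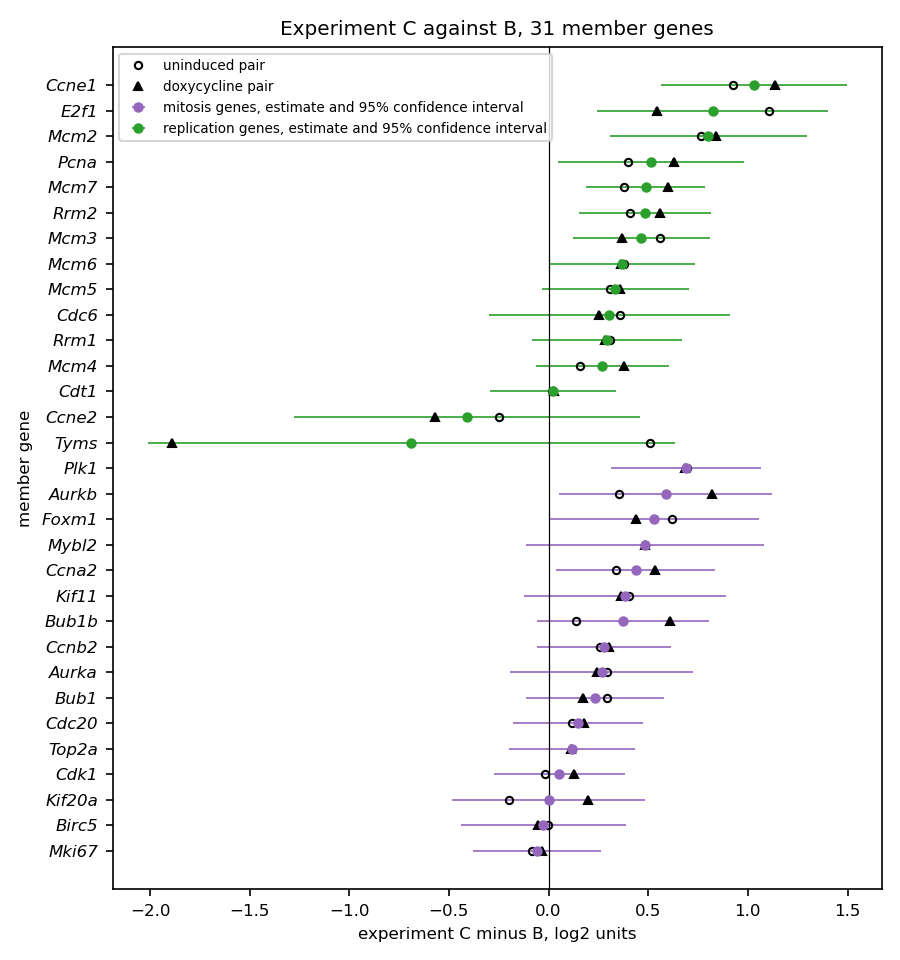
Experiment C minus B (x axis, log2 units) for each of the 31 member genes (y axis), by the brightest tested probe set. Filled circles and lines are the limma estimate and its 95% confidence interval (green for replication, purple for mitosis), open circles the difference between the uninduced arrays and triangles that between the doxycycline arrays. Most genes lie to the right of 0, with Ccne1 at 1.03 and Plk1 at 0.69 leading their groups, and Ccne2 and Tyms lie to the left.

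Against A, 5 of 62 members passed as higher in C, beside 2.52% of all tested probe sets, and 0 as lower, beside 4.29%. They were the probe sets of Rrm2, Rrm1, Pcna, Ccna2 and Mcm7 (1416030_a_at, C minus A 1.05, adjusted p = 0.0347 in limma). All 5 also passed without the uninduced array of A, at 0.94, 1.03, 0.52, 0.53 and 0.64. In that fit 11 passed as higher, beside 6.43% of all, and 2 as lower (Ccne2 at -1.01 and Tyms at -2.34), beside 8.27%. Without the doxycycline array of A, which leaves the uninduced array alone to stand for A, 28 passed as higher and 4 as lower, beside 16.9% and 19% of all. Without the uninduced array of C only Tyms passed, as lower (0.803% of all, with 0.174% higher), and without the doxycycline array of C only Rrm1, as higher (0.411% of all, with 0.892% lower). Between B and A, 0 members passed as higher and 1, Mcm7 on 1439269_x_at, as lower in B, beside 2.09% and 1.91% of all tested probe sets. Without the uninduced array of A, 9 passed as lower, beside 5.55% of all, and 0 as higher, beside 5.27%. The 9 were of Mcm2, Mcm3, Mcm5, Mcm6, Mcm7, Cdc6, Cdc20, Aurkb and Bub1, by -0.45 to -0.74. Without the doxycycline array of A, 14 passed as higher and 16 as lower, beside 15.8% and 18.5% of all, and 0 passed without any 1 of the arrays of B or C.

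The longer lists lay in the same direction between C and B. Of 40 further replication genes 34 were higher in C (median 0.41), and 3 passed, beside 5.78% called higher among all 12452 tested genes: Tk1, for thymidine kinase (1.06), the primase partner Pola2 (0.79) and Pold2 (0.74). Of 42 further mitosis genes 36 were higher (median 0.21), and 2 passed, a share near that of all genes: the Cdk1 phosphatase Cdc25b (1.42) and Ube2c, the ubiquitin conjugase of the anaphase complex (0.74). The condensin subunit Ncapd2, next by p, stood at 0.55 (adjusted p = 0.0679 in limma). Among the brake and G1 genes 16 of 24 were higher, with E2f4 (1.16) and Ccnd2, for cyclin D2 (0.81), past the threshold as higher and Cdkn1c past it as lower. Cdkn1c, the cyclin-dependent kinase inhibitor p57, gave 2538, 9486 and 2137 uninduced and 2607, 9980 and 2110 with doxycycline. Both B arrays lay well above the other 4 (C minus B -2.19, adjusted p = 0.000198, and B minus A 1.91, adjusted p = 0.00274, both in limma).

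Markers of cell types also differed between the experiments, and their part in the differences above was not tested. All 7 tested neural markers passed as higher in C than in B (median 3.77), with summed signals of 565 and 876 on the B arrays, 4717 and 6411 on the A arrays and 16439 and 17060 on the C arrays. Of all 12452 tested genes, 5.78% passed as higher and 6.94% as lower. Lower in C past the threshold were 7 of 8 endothelial markers (median -3.09), 5 of 8 cardiac (median -2.83), 5 of 7 mesenchymal (median -2.47), 5 of 8 endodermal (median -1.94) and 3 of 8 blood markers (median -1.90). Of 8 pluripotency markers 3 passed as higher in C (median 1.26). Summed signals of the blood markers were 27743 and 37867 in B and 955 to 3651 in A and C. The summed signal of the replication genes was 71908 and 80379 in B, 72058 and 84821 in A and 100723 and 103961 in C. That of the mitosis genes differed less, at 56366 and 62977 in B, 60950 and 64162 in A and 66016 and 69569 in C. Over all tested genes the median of C minus B was 0.07.

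On the uninduced array of A the probe sets of 1 gene disagreed for some members. Relative to the median of the other 5 arrays, Rrm1 stood at -2.46 on 1448127_at and -0.36 on 1415878_at. Kif11 stood at -2.17 and -0.14, Mcm3 at -1.61 and 0.37 and Rrm2 at -1.61 and -0.01 on their lowest and highest probe sets. Of 21 genes with more than 1 tested probe set, 10 ranged over more than 1 log2 unit on this array. This range was not computed for other genes or on the other arrays. Of the 62 probe sets 4 lay more than 1 unit below the others and 1 above, against 7.60% and 7.80% of all tested probe sets. The array was the lowest of the 6 on 21 of 62 members (33.9%) and the highest on 14 (22.6%), beside 23.9% and 29.9% of all tested probe sets. The lowest place was less unusual in the interquartile range of mean signal of the members' brightest probe sets, at 32.8%. For doxycycline minus uninduced the probe sets of 1 gene had opposite signs in 11 of 21 genes, and for C minus B in 2, Mcm4 and Tyms. Neither share was computed over all genes. Probe set names ending in _s_at or _x_at mark probes shared by several transcripts or with other sequences, and several of the brightest member probe sets are of this kind.

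**Figure D5:**
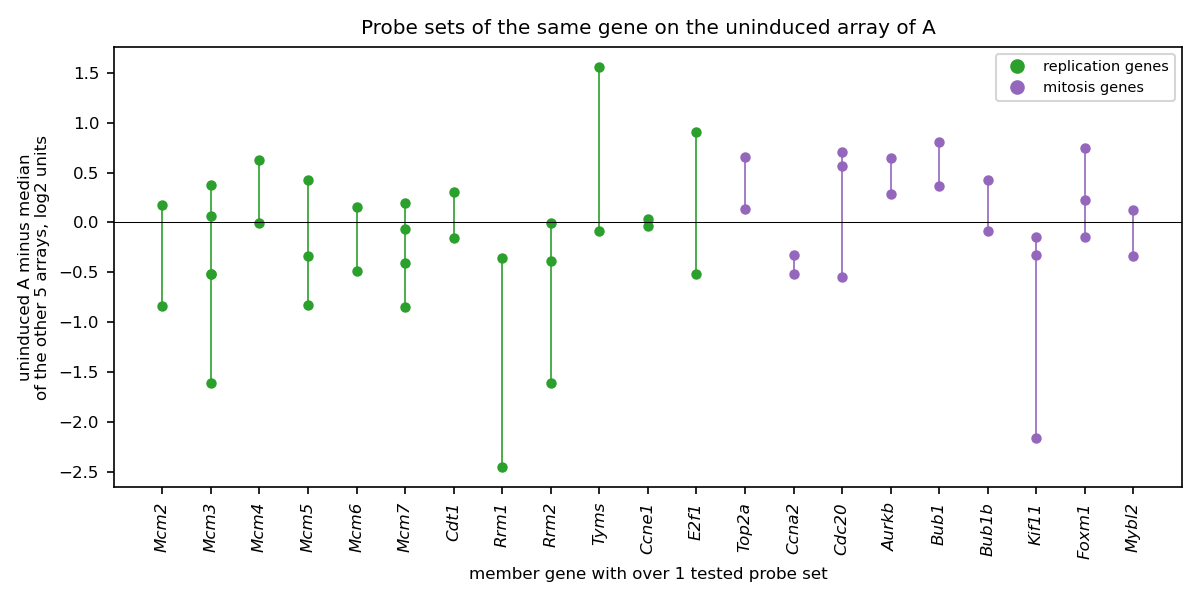
Uninduced array of A minus the median of the other 5 arrays (y axis, log2 units) for each tested probe set of the 21 member genes with more than 1 (x axis), joined by a line per gene. The 2 probe sets of Ccne1 lie together near 0, while the lowest ones of Rrm1, Kif11, Mcm3 and Rrm2 lie between -1.61 and -2.46 and their highest between -0.36 and 0.37.

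The spread of the members across the arrays was set beside that of probe sets of like signal. The median SD of the log2 level was 0.27 for the replication and 0.27 for the mitosis genes, each by its brightest tested probe set. Probe sets in the interquartile range of mean signal of those brightest probe sets (1328 to 6753), here called of like signal, had 0.28. Over the 62 member probe sets it was 0.32, against 0.40 over all tested. Mean signals of the 62 ran from 89.1 to 19109, so the range of like signal does not match them. Without the uninduced array of A it was 0.29 for the replication genes and 0.21 for the mitosis genes, against 0.22 for probe sets of like signal. Over the 62 member probe sets it was then 0.29, against 0.33 over all tested. The steadiest members were Mki67 (SD 0.14), Mcm4 on 1416214_at (0.15), Top2a on 1454694_a_at (0.15) and Cdk1 (0.15). The widest were Tyms on 1438690_at (1.23), Rrm1 on 1448127_at (1.12), Kif11 on 1452315_at (1.00) and Rrm2 on 1416120_at (0.87). Without the uninduced array of A these stood at 1.13, 0.51, 0.57 and 0.56, and Ccne1 on 1416492_at (0.62) and Bub1 on 1438571_at (0.59) came next after Tyms.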

How the data were processed

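RNA abundance was measured on 6 one-colour arrays. The authors deposited 1 linear signal intensity per probe set and array, credited to MAS5 in the submitters' processing notes; its version is not given in the sources used. The 2% trimmed mean was 500 on every array, and the values were used without further normalization. The 45101 probe sets include 64 controls. Gene names came from GEO's platform annotation, with symbols updated through RefSeq, and 2 probe sets that name Tyms or Foxm1 together with other genes were left out. The offset of 18.8 is the 20th percentile of all values, and probe sets with a mean below the 40th percentile (60.5) were not tested. The 6 arrays, 3 per condition, limit the precision.

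limma 3.58.1 in R 4.3.3 compared doxycycline with uninduced arrays (group means) and the experiments (experiment and doxycycline as terms), with an intensity trend, Benjamini-Hochberg adjustment at 0.05 and two-sided tests. A gene is represented by its brightest tested probe set. Per the labels, arrays of 1 letter share an experiment, and deviations from the group means correlated at 0.45 (A), 0.67 (B) and 0.66 (C) between arrays of 1 letter and at -0.53 to -0.12 otherwise, so the letters pair the arrays. The scripts were tested on simulated data. The members and lists were chosen with earlier results of these data known. Named with all values were the brightest member of each role and those past the threshold, and from the longer lists the 3 genes with the smallest p with doxycycline and between C and B. Other offsets, filters, quantile normalization, no trend, the replicate block and leaving out arrays were tried.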

Additional observations from a re-analysis of the deposited data

Results flagged for a closer look

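Under the same contrast, doxycycline minus uninduced, the medians over the member genes differed in sign between experiments, and several lay close to 0. The median over the 15 replication genes was 0.29 in experiment A, against -0.11 in B and -0.041 in C. The median over the 16 mitosis genes was -0.017 in A and -0.10 in B, against 0.0051 in C. In C the genes were about evenly split, with 8 of 15 replication and 8 of 16 mitosis genes lower. Each experiment has 1 array per condition, so these differences between experiments were not tested. The values in A rest on the uninduced array whose 3′ to 5′ ratio was 2.88 for Actb, and its part in them was not tested.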

How the results depend on the processing

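With doxycycline 0 of 62 members passed under every alternative run, the replicate block included (0 probe sets in all). With the block and the uninduced array of A left out, an alternative chosen after seeing the data, 251 of all probe sets passed, 0 of them members, and the mitosis median was -0.11. The replicate block changed no other call. Leaving out arrays moved the doxycycline medians between -0.06 and 0.22 (replication) and between -0.12 and 0.079 (mitosis), so neither kept its sign.

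Calls between experiments depended on the moderation and on single arrays. Without an intensity trend 76 probe sets passed for B minus A (0 members), 174 for C minus A (0 members) and 1686 for C minus B (1 member), in place of 1082, 1842 and 2591. Without the filter 702 passed for B minus A and 1089 for C minus A (2 members). B minus A had 0 members with log2(signal + 1), without the filter and with quantile normalization, and C minus A had 3 with quantile normalization. Over the fits that left out arrays the counts ran from 139 to 9262 for B minus A (0 to 30 members), from 264 to 9709 for C minus A (1 to 32 members) and from 1018 to 8179 for C minus B (0 to 36 members).

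The medians of C minus B stayed above 0 in every alternative. They were 0.40 (replication) and 0.30 (mitosis) with quantile normalization, 0.48 and 0.31 with the mean of all probe sets of a gene, and 0.27 for mitosis with offsets of 1 or 50. Leaving out arrays gave 0.23 to 0.48 (replication) and 0.23 to 0.33 (mitosis). The mitosis median of C minus A was 0.24 with the mean of probe sets and 0.19 to 0.26 with arrays left out, and that of B minus A was -0.24 to -0.011. Where the text gives no cause for such a change, the cause was not tested. Of the member probe sets past the threshold in the main fit, none changed sign past it in an alternative. Detection calls were not used here, so how far dim probe sets such as those of Tyms exceed background is unknown.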
